A study of Danio rerio with 8 samples.

Results

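The proline and acidic amino acid-rich (PAR) bZIP transcription factors dbp, tef and hlf and the related repressor nfil3 were followed in rods and in the other cells of the adult zebrafish retina. The 10 transcripts were selected by gene symbol from the authors' annotated table: dbpa, dbpb, tefa, tefb, hlfa and hlfb, which are the 6 PAR bZIP genes, and nfil3, nfil3-2, nfil3-5 and nfil3-6, which are the 4 nfil3 genes. They are 10 of 13325 genes in that table, out of 33737 gene identifiers that were counted. The table holds the genes that exceeded a level of 1 CPM (1 count in 1000000 counts of a library) in at least 4 of the 8 libraries. For this minimum the counts of a library include reads without a gene and are not scaled, unlike the levels given below. The symbols and this level minimum chose the members, and no fold change or p-value entered the rule. The family was, however, picked with earlier results of these libraries known, so the false discovery rates (FDR) below place each gene among all genes tested and are not independent evidence.

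All 8 libraries came from 4 adult xops:eGFP fish, in which a Xenopus rod opsin promoter drives enhanced GFP in rods. The fish were kept on a light cycle of 14 h light and 10 h dark. They were dark-adapted for 10 h or more, at least as long as the dark phase, before the retinas were removed. Cells of the 2 retinas of each fish were freed by protease treatment and sorted by fluorescence into a GFP+ population (rods) and a GFP- population (other retinal cells), which gave 4 libraries for each population and a pair of libraries for each fish. The library titles name the fish 1, 2, 2_2 and 5_2. The suffix _2 is not explained, and the labels give neither the time of collection nor the sex of a fish. The paper states that sex was a variable of its design and reports a test of sex by rod interaction. The 2 fish with the suffix may differ from the 2 fish without it in time of day, sex, batch or individual, and these cannot be told apart.

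PAR bZIP proteins bind a DNA element called the D-box and activate transcription. Nfil3, also called E4BP4, binds the same element and represses it. In mammals the CLOCK and BMAL1 activators drive Dbp through E-boxes. Dbp transcript and Nfil3 transcript peak at nearly opposite times of the day, and the balance of the proteins shapes the rhythm of D-box genes. In zebrafish, D-boxes also take part in the response of clock genes such as per2 to light, and the zebrafish genome carries duplicated copies (a and b) of each PAR bZIP gene and several nfil3 genes.

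The libraries held between 1722055 and 2514874 counts assigned to genes. Mitochondrial genes took 12.4% to 39.3% of the gene counts in GFP+ libraries and 25.0% to 66.1% in GFP- libraries, with the highest share of each population in fish 2_2. All 10 rod markers were higher in GFP+ cells (median log2 fold change 3.0), and all 9 cone markers and all 7 microglial and leukocyte markers tested were lower in them. Each passed an FDR of 0.05 by edgeR, beside 15.2% of all 12564 genes tested. The summed level of the rod markers ranged from 32591 to 66507 CPM in GFP+ and from 2574 to 13684 CPM in GFP- libraries, so the GFP- population was not free of rod transcripts. Levels are given as CPM after scaling by the trimmed mean of M-values (TMM), and since no transcript lengths were used, levels are compared between libraries and not between genes.

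The dbp genes, which encode D-box binding protein, were the members that passed the test between fish. Both rose in fish 2_2 and 5_2 relative to fish 1 and 2, and they did so in rods as well as in the other retinal cells. The dbpb gene lies on chromosome 16, from 15351114 to 15364896 on the reverse strand of the Zv9 assembly. In GFP+ cells its level was 70.7 CPM in fish 1, 40.6 CPM in fish 2, 1047 CPM in fish 2_2 and 612 CPM in fish 5_2. In GFP- cells it was 75.6 CPM in fish 1, 55.4 CPM in fish 2, 586 CPM in fish 2_2 and 442 CPM in fish 5_2. The lowest library of the fish with the suffix was thus far above the highest library of the others in each population, and the mean was 14.9-fold higher in GFP+ cells and 7.84-fold higher in GFP- cells. In the edgeR quasi-likelihood test the log2 fold change was 3.89 (SE 0.47, FDR = 0.00282, 2 fish against 2) in GFP+ cells, where dbpb ranked 3 of 12564 genes by p. In GFP- cells it was 2.97 (SE 0.45, FDR = 0.00762), at rank 18.

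The dbpa gene, on chromosome 19 from 10799651 to 10818906 on the reverse strand, followed the same course. In GFP+ cells its level was 54.8 CPM in fish 1, 34.1 CPM in fish 2, 593 CPM in fish 2_2 and 313 CPM in fish 5_2. The GFP- levels were 77.8 CPM in fish 1, 64.7 CPM in fish 2, 867 CPM in fish 2_2 and 231 CPM in fish 5_2. The groups of fish did not overlap, although the 2 fish with the suffix differed from each other more in GFP- cells than in GFP+ cells. By edgeR the log2 fold change was 3.34 (SE 0.59, FDR = 0.0246) in GFP+ cells and 2.94 (SE 0.58, FDR = 0.0307) in GFP- cells, and the means differed 10.2-fold and 7.71-fold.

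dbpa and dbpb were the 2 of the 10 members that passed an FDR of 0.05 in GFP+ cells, both higher with the suffix. Of all 12564 genes, 0.541% passed in that comparison, 0.406% higher and 0.135% lower with the suffix. In GFP- cells the same 2 members passed, beside 0.669% of all genes, 0.541% higher and 0.127% lower. These calls come from a fit that does not model the pairing of libraries by fish. With the GFP+ libraries fitted alone, the edgeR FDR was 0.0396 for dbpa and for dbpb, with 25 genes past the threshold. With the GFP- libraries fitted alone it was 0.023 for dbpa and 0.00474 for dbpb. The calls also rest on few fish. Without fish 2 neither dbp gene passed in either population (edgeR FDR from 0.125 to 0.373), while the log2 fold changes stayed between 2.76 and 3.55. Without fish 1 dbpb in GFP- cells (FDR = 0.108) and dbpa in both populations (FDR = 0.135 and 0.271) were lost, and without fish 2_2 the same 3 calls were lost (FDR from 0.0503 to 0.225), with dbpa in GFP- cells at a log2 fold change of 1.68 in place of 2.94. With no scaling factors these 3 calls were also lost, at log2 fold changes of 2.62 (FDR = 0.0536) for dbpa in GFP+ cells and of 1.72 (FDR = 0.073) and 1.84 (FDR = 0.0519) for dbpa and dbpb in GFP- cells. In that setting the median over all genes was -0.70 in GFP+ and -1.14 in GFP- cells, against -0.05 and -0.06 with TMM.

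**Figure D1:**
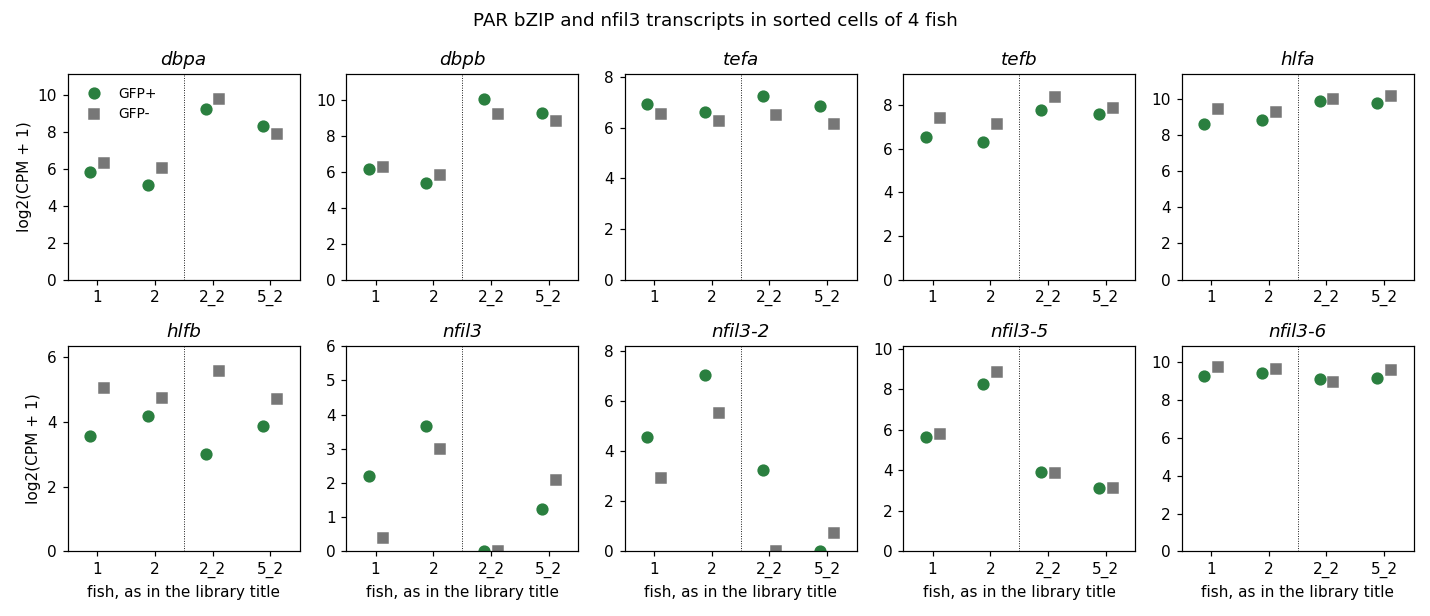
Each panel plots 1 transcript as log2(CPM + 1) in GFP+ (green circles) and GFP- (grey squares) cells of the 4 fish, named as in the library titles. The dotted line separates fish without and with the suffix _2. dbpa and dbpb are higher to the right of the line in both populations, nfil3-5 is lower there, and tefa and nfil3-6 vary little.

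The remaining PAR bZIP genes differed less. tefb, a copy of thyrotroph embryonic factor on chromosome 3, measured 90.5, 79.0, 216 and 194 CPM in GFP+ cells of fish 1, 2, 2_2 and 5_2. The GFP- levels were 168, 138, 330.5 and 230.5 CPM in the same order. The fish groups did not overlap, with means 2.42-fold higher in GFP+ cells and 1.83-fold higher in GFP- cells of the fish with the suffix. The log2 fold changes of 1.27 (SE 0.38) and 0.87 (SE 0.37) did not pass by edgeR (FDR = 0.159 and 0.41). The second was -0.26 when library totals were used with no scaling factors, where the median over all genes was -1.14.

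hlfa, a copy of hepatic leukaemia factor on the same chromosome, gave 379, 454, 934 and 856 CPM in GFP+ cells of fish 1, 2, 2_2 and 5_2. In GFP- cells it gave 685, 606, 994 and 1126 CPM. Here too the fish groups were separate in each population, with means 2.15-fold and 1.64-fold higher in the fish with the suffix. The log2 fold changes were 1.10 (SE 0.36, edgeR FDR = 0.198) in GFP+ and 0.72 (SE 0.36, FDR = 0.503) in GFP- cells. The latter was -0.37 without scaling factors, where the median over all genes was -1.14. With DESeq2 in place of edgeR, tefb (adjusted p = 0.0364) and hlfa (adjusted p = 0.0288) passed in GFP+ cells. Over the 10 alternatives tried in GFP+ cells the adjusted p ranged from 0.0364 to 0.856 for tefb and from 0.0288 to 0.802 for hlfa, and DESeq2 was the alternative under which either passed.

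The other copies, tefa and hlfb, gave overlapping fish groups in both populations. For tefa the log2 fold change was 0.28 (SE 0.38) in GFP+ cells, or -0.41 without scaling factors, and -0.08 (SE 0.39) in GFP- cells. For hlfb it was -0.41 (SE 0.63) in GFP+ cells and 0.32 (SE 0.60) in GFP- cells, or -0.83 without scaling factors. The edgeR FDR of these 4 values lay between 0.801 and 0.97. Without scaling factors the median over all genes was -0.70 in GFP+ and -1.14 in GFP- cells. Differences between the copies of a gene were not tested.

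Among the nfil3 repressor genes, nfil3-5 differed in the opposite direction to dbp. It lies on chromosome 6, from 9616159 to 9623974 on the reverse strand. In GFP+ cells it measured 48.5 CPM in fish 1, 306 CPM in fish 2, 14.3 CPM in fish 2_2 and 7.77 CPM in fish 5_2. In GFP- cells it measured 54.8 CPM in fish 1, 454 CPM in fish 2, 13.6 CPM in fish 2_2 and 7.77 CPM in fish 5_2. Every library without the suffix was above every library with it, but fish 2 was also several times above fish 1 in both populations. The counts behind the low values were 20 and 17 in GFP+ cells and 13 and 12 in GFP- cells.

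The mean nfil3-5 level was 16.1-fold higher in GFP+ cells and 23.9-fold higher in GFP- cells of fish 1 and 2. The log2 fold change for the suffix was -4.03 (SE 0.96, edgeR FDR = 0.0871) in GFP+ cells and -4.61 (SE 1.00, FDR = 0.0547) in GFP- cells. Neither value passed the threshold in this fit, which does not model that the libraries of a fish are paired. With each population fitted alone the GFP+ value was -4.03 (FDR = 0.0885) and the GFP- value -4.60 (FDR = 0.0195), which passed. Without fish 1, the lower of the 2 fish, the values were -4.81 (FDR = 0.00425) and -5.44 (FDR = 0.00412), and both passed. Without fish 2, where nfil3-5 was highest, they were -2.15 (FDR = 0.708) and -2.38 (FDR = 0.62). DESeq2 gave adjusted p = 0.0443 and 0.0143. Over the 10 alternatives nfil3-5 passed in 3 for GFP+ and in 5 for GFP- cells, with adjusted p from 4.97e-11 to 0.708 and from 1.12e-13 to 0.62.

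nfil3-2 and nfil3-6 are neighbours on the reverse strand of chromosome 3, at 13875231 to 13876856 and 13889405 to 13895597, with 12548 bp between them. The shorter gene, nfil3-2, had 69, 298, 12 and 0 counts in GFP+ cells of fish 1, 2, 2_2 and 5_2, which is 22.8, 129, 8.57 and 0 CPM. The GFP- libraries held 21, 117, 0 and 1 counts, or 6.62, 45.3, 0 and 0.65 CPM. Transcripts were thus counted mainly in fish 1 and 2, and most in fish 2. On summed counts the level in fish 1 and 2 was 20.5-fold that of the other fish in GFP+ cells (367 against 12 counts, 95% exact interval 11.6 to 40.1) and 60.0-fold in GFP- cells (138 against 1 count, interval 10.6 to 2388). These intervals cover counting error only and not the spread between fish. nfil3-2 exceeded the table's minimum of 1 CPM in 5 libraries, mainly those of fish 1 and 2. The direction of its ratios is therefore tied to that minimum, and the intervals are no test of it. The edgeR test did not pass (FDR = 0.159 and 0.177), and fitted fold changes of genes with libraries at 0 depend on the prior count. Of the 10 alternatives, nfil3-2 passed in 1 for each population, the edgeR fit with no low count filter (FDR = 5.31e-06 in GFP+ and 5.52e-06 in GFP- cells).

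Its neighbour nfil3-6 was the most even of the nfil3 genes. It gave 624, 681, 547 and 574 CPM in GFP+ cells and 842, 801, 501 and 766 CPM in GFP- cells of the 4 fish. The means were 1.16-fold and 1.30-fold higher in fish 1 and 2, with log2 fold changes of -0.22 (SE 0.37) and -0.37 (SE 0.37) for the suffix that did not pass by edgeR (FDR = 0.84 and 0.787). The groups were nevertheless separate by a small margin in each population. The 2 neighbouring genes differed between fish to unlike extents in these values, a difference that was not tested. How reads that match both were counted is not given in the sources used here.

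nfil3 itself, on chromosome 10, was near the limit of detection. It had 11, 27, 0 and 3 counts in GFP+ cells and 1, 18, 0 and 5 counts in GFP- cells of fish 1, 2, 2_2 and 5_2. On summed counts its level in fish 1 and 2 was 8.50-fold that of the other fish in GFP+ cells (38 against 3 counts, 95% exact interval 2.70 to 43.0). In GFP- cells the ratio was 1.65 (19 against 5 counts, interval 0.597 to 5.66), where the fish groups overlapped and the interval spans equality. These intervals, too, cover counting error only and not the spread between fish. Neither edgeR value passed (FDR = 0.452 and 0.9). At this depth 3 counts correspond to 0.945 to 3.13 CPM, so a library at 0 does not show absence. On the unscaled level used for the table's minimum, nfil3 exceeded 1 CPM in 4 libraries, nfil3-2 in 5 and the other 8 members in all 8. On the TMM scale nfil3 was also above 1 CPM in GFP+ cells of fish 5_2 (1.37 CPM). nfil3 thus only just met the minimum, with its highest counts in fish 1 and 2. The direction of its ratio in GFP+ cells is therefore tied to that minimum. Just outside it, nfil3-4 had 2 counts in all libraries together and is not described further.

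Across the family, for 7 of the 10 members the groups of fish were separate in both populations and in the same direction (dbpa, dbpb, tefb and hlfa higher with the suffix, nfil3-2, nfil3-5 and nfil3-6 lower), beside 17.9% of all genes tested. This count rests on TMM levels. Without scaling factors the GFP- log2 fold changes of tefb (-0.26) and hlfa (-0.37) had the opposite sign, and the median over all genes was -1.14. For nfil3-2 the direction is tied to the level minimum, since 4 of the 5 libraries in which it exceeded 1 CPM are those of fish 1 and 2. The median log2 fold change of the 10 members was 0.03 in GFP+ and 0.12 in GFP- cells, against -0.05 and -0.06 over all genes, with members on both sides of 0. At an unadjusted edgeR p under 0.05 there were 6 members in GFP+ cells and 5 in GFP- cells. Of all 12564 genes tested, 1691 in GFP+ cells and 1353 in GFP- cells had such a p.

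**Figure D2:**
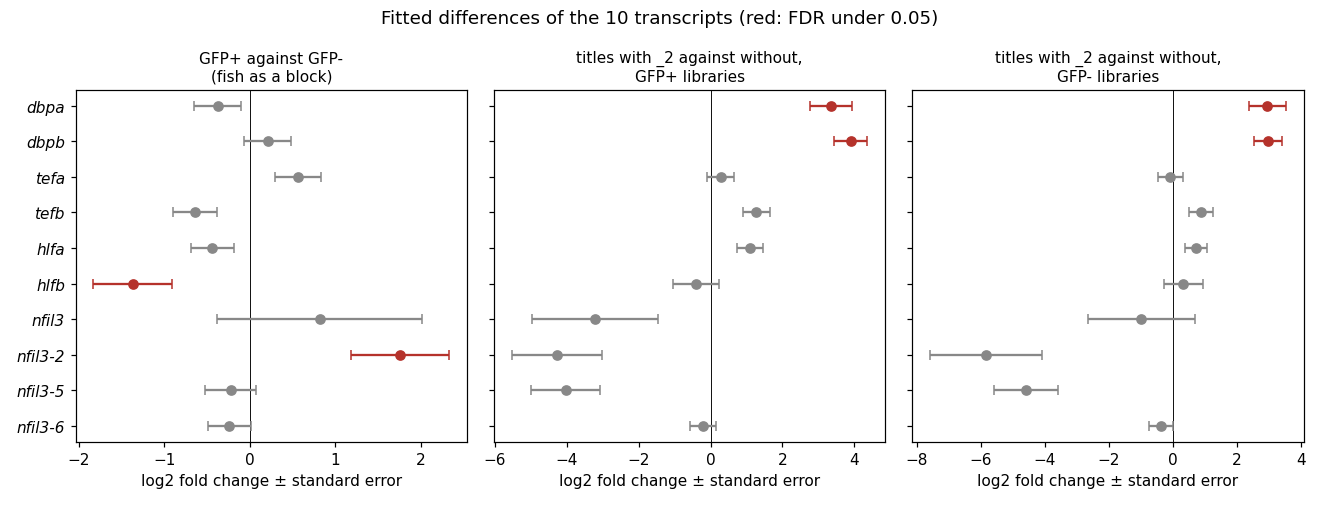
Points show the log2 fold change of each transcript with its standard error in 3 edgeR comparisons, GFP+ against GFP- within fish on the left, and fish with the suffix _2 against fish without it in GFP+ (middle) and GFP- (right) cells. Red marks an FDR under 0.05, which is reached by hlfb and nfil3-2 on the left and by dbpa and dbpb in the other panels. Standard errors were derived from the fold change and the F statistic. Values and standard errors of nfil3 and nfil3-2 rest on libraries with 0 counts and depend on the prior count.

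A ratio of 2 transcripts within a library does not depend on how libraries are scaled. The number of dbpb counts per nfil3-5 count, a pair chosen after its values were seen, was 1.46 in fish 1, 0.133 in fish 2, 73.3 in fish 2_2 and 78.8 in fish 5_2 in GFP+ cells. In GFP- cells of the same fish it was 1.38, 0.122, 43.2 and 56.8. The ratios of fish 2_2 and 5_2 were above those of fish 1 and 2 in each population, and they rest on 12 to 20 nfil3-5 counts. For dbpa the ratio was 1.13, 0.111, 41.5 and 40.2 in GFP+ cells and 1.42, 0.142, 64.0 and 29.8 in GFP- cells.

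Other properties of the libraries moved with the suffix. The share of reads without a gene was 55.3% and 50.6% in GFP+ cells of fish 1 and 2 against 46.4% and 40.5% in fish 2_2 and 5_2. In GFP- cells it was 39.4% and 41.0% against 35.2% and 34.4%. The mitochondrial share was 12.4% and 19.1% in GFP+ cells of fish 1 and 2 against 39.3% and 28.9% in fish 2_2 and 5_2, and in GFP- cells 25.0% and 26.9% against 66.1% and 58.7%. The summed rod marker level in GFP- cells was 2574 and 3839 CPM against 13684 and 11036 CPM, and 4 of 10 rod markers passed as higher there by edgeR. By DESeq2 9 passed, and 10 had an unadjusted edgeR p under 0.05. In GFP+ cells the summed rod level was 32591 and 49192 CPM against 66507 and 64260 CPM, with 2 of 10 past the threshold by edgeR and 3 by DESeq2. The GFP+ to GFP- ratio differed between suffixes past the threshold for 1 of 10 rod markers by edgeR and 6 by DESeq2 (median -1.365), beside 0.167% of all genes by edgeR. The summed cone marker level in GFP- cells was 35557 and 24519 CPM in fish 1 and 2 against 22885 and 18630 CPM in fish 2_2 and 5_2, and 1 of 9 cone markers passed as lower in each population. Bipolar markers summed to 547 and 743 CPM against 253 and 436 CPM in GFP- cells. Of 5 pigment epithelium markers 2 were tested, and by edgeR 0 passed for the suffix in either population. For a difference of the GFP+ to GFP- ratio between suffixes, 1 of them passed by edgeR and 0 by DESeq2. The list includes pmela, for which the paper's sex by rod test reports transcript in male rods and none in female rods. The labels give no sex, and the part of sex was not tested. The pigment epithelium markers summed to 51.0 and 52.7 CPM against 13.6 and 19.4 CPM in GFP- cells, and to 5.61 and 3.88 CPM against 26.4 and 24.7 CPM in GFP+ cells. These sums were separate between the groups of fish. In GFP+ cells the cone sums (5385 and 3179 against 5417 and 4477 CPM) and the bipolar sums (194 and 167 against 204 and 178 CPM) overlapped. Sums of Muller glial markers, of amacrine, horizontal and ganglion markers and of erythrocyte markers were not separate in either population. Of all genes, 0.541% passed for the suffix in GFP+ and 0.669% in GFP- cells. The summed microglial and leukocyte level in GFP- cells ran from 1505 to 3926 CPM and overlapped between the groups, with 0 of 7 markers past the threshold by edgeR or DESeq2 and 0 at an unadjusted p under 0.05. In GFP+ cells the sums also overlapped, at 97.4 and 218 CPM against 33.6 and 106 CPM. There 0 of 7 passed by edgeR and 1 by DESeq2, and 2 had an unadjusted edgeR p under 0.05. The part of these differences in the levels of the family was not tested. With mitochondrial genes left out of the counts, dbpa and dbpb passed in both populations. That setting hardly moved the log2 fold changes (dbpa in GFP+ cells 3.33 in place of 3.34, dbpb in GFP- cells 2.99 in place of 2.97). It does not test the part of the mitochondrial share.

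The genes were then compared between rods and other cells of the same fish, as the sort was designed to do. hlfb was the PAR bZIP transcript that was lower in rods past the threshold. It gave 10.9, 17.3, 7.15 and 13.7 CPM in GFP+ cells and 31.8, 25.6, 46.9 and 25.2 CPM in GFP- cells of fish 1, 2, 2_2 and 5_2. All GFP+ libraries were below all GFP- libraries, with means of 12.3 ± 4.3 and 32.4 ± 10.1 CPM (SD, n = 4). The log2 fold change was -1.37 (SE 0.46, edgeR FDR = 0.0468). The call was just inside the threshold and was lost on leaving out any of the fish (FDR = 0.184 without fish 1, 0.0507 without fish 2, 0.165 without fish 2_2 and 0.0943 without fish 5_2), with log2 fold changes from -1.66 to -0.97. It was also lost with no scaling factors (FDR = 0.159), and hlfb passed in 3 of the 11 alternatives tried. Markers of other retinal cells passed as lower in the same GFP+ libraries (9 of 9 cone, 4 of 6 bipolar, 4 of 6 amacrine, horizontal and ganglion, 1 of 5 Muller glial and 7 of 7 microglial and leukocyte markers), beside 1202 of all 12564 genes. Their part in the hlfb level was not tested. In bulk populations, fewer cells of a type and less RNA per cell cannot be told apart.

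nfil3-2 was the other member past the threshold, and it was higher in rods, with a log2 fold change of 1.76 (SE 0.57, edgeR FDR = 0.0395). Given above, its GFP+ levels exceeded the GFP- levels in fish 1, 2 and 2_2, while in fish 5_2 it had 0 counts in GFP+ and 1 in GFP- cells. Between populations the levels overlapped, and the difference was seen within fish. It did not pass without fish 1 (FDR = 0.16), without fish 2 (FDR = 0.381) or without the pairing by fish (FDR = 0.551). Together 2 of 10 members passed between populations, beside 15.2% of all genes, of which 703 were higher and 1202 lower in GFP+ cells. Without scaling factors that split was 1125 higher and 735 lower, and the median over all genes moved from -0.02 to 0.32, so small differences between populations depend on the scaling.

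The remaining members did not pass. tefa, the copy that overlapped between fish groups, was higher in GFP+ cells of all 4 fish, at 121, 96.7, 150.0 and 115 CPM against 90.4, 75.5, 88.6 and 68.6 CPM. Its log2 fold change was 0.57 (SE 0.27, edgeR FDR = 0.179), and 0.93 (FDR = 0.0492) without scaling factors. tefb was lower in GFP+ cells of all 4 fish on the TMM scale, with a log2 fold change of -0.64 (SE 0.26, edgeR FDR = 0.103), or -0.27 without scaling factors. hlfa was likewise lower on the TMM scale (-0.44, SE 0.26, edgeR FDR = 0.295), or -0.076 without scaling factors.

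The dbp and the other nfil3 genes did not pass between populations and their sign was not the same in all fish. The log2 fold change was -0.38 (SE 0.27) for dbpa and 0.21 (SE 0.27) for dbpb. It was -0.24 (SE 0.25) for nfil3-6, or 0.12 without scaling factors, and -0.22 (SE 0.30) for nfil3-5, or 0.094 without scaling factors. For nfil3 it was 0.82 (SE 1.20), and -0.093 without fish 1. The edgeR FDR of these 5 genes ranged from 0.422 to 0.737. The median over the 10 members was -0.23, against -0.02 for all genes. An unadjusted edgeR p under 0.05 was reached by 4 members, beside 3326 of all 12564 genes tested.

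Whether the rod to non-rod difference itself depended on the suffix was tested with an interaction term. By edgeR, 0 of 10 members passed, beside 0.167% of all genes. The 1 member with an unadjusted p under 0.05 was dbpb, with a log2 difference of ratios of 0.92 (SE 0.43, edgeR FDR = 0.787). Over all genes, 764 of 12564 had an unadjusted edgeR p under 0.05. DESeq2 also called 0 members, with 1 at an unadjusted p under 0.05. Of the 10 rod markers, 1 passed for this term by edgeR and 6 by DESeq2, and their part in the dbpb values was not tested. In the fish with the suffix dbpb was higher in GFP+ than in GFP- cells, by 0.84 and 0.47 on the log2 scale, and in fish 1 and 2 it was lower, at -0.10 and -0.45. The test has 2 residual degrees of freedom, and a difference that misses the threshold is not shown to be absent.

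The core clock genes around the family were counted on a list of 37 symbols, of which 29 were found and 30 gene identifiers tested (cry3 has 2). Between fish in GFP+ cells 3 rose with the suffix and 4 fell, beside 0.541% of all genes past the threshold, with a median log2 fold change of -0.79 against -0.05 over all genes. Those higher were bhlhe41 (4.42, FDR = 0.00282 by edgeR), which encodes the E-box repressor Dec2, the period gene per1a (2.48), and the Rev-erb type nuclear receptor nr1d4b, at 0.66 and 0.86 CPM in fish 1 and 2 and at 191 and 28.8 CPM in fish 2_2 and 5_2. Those lower were arntl1b, a bmal1 gene that encodes a partner of Clock (-3.88), the ROR type activator genes rorca (-5.29) and rorcb, and the cryptochrome gene cry2a (-3.12). rorcb measured 149 and 242 CPM in GFP+ cells of fish 1 and 2, and had no counts in those of fish 2_2 and 5_2.

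In GFP- cells 2 core clock genes were higher with the suffix, bhlhe41 (3.43) and per1a (2.69), and 4 were lower, arntl1b (-4.47), rorca (-4.64), rorcb (-4.89) and cry2a (-2.32), with a median over the list of -0.83 against -0.06 over all genes, of which 0.669% passed. These 6 also passed in GFP+ cells in the same direction. Between populations 6 of the 30 were higher in GFP+ cells and 2 lower, beside 15.2% of all genes past the threshold. The orphan receptor gene rorb (2.48) had the smallest FDR of these, at 4.02e-06 by edgeR, followed by 1 of the cry3 genes (2.32), and those lower were roraa (-1.18) and nr1d1 (-0.98), which encodes a Rev-erb repressor.

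**Figure D3:**
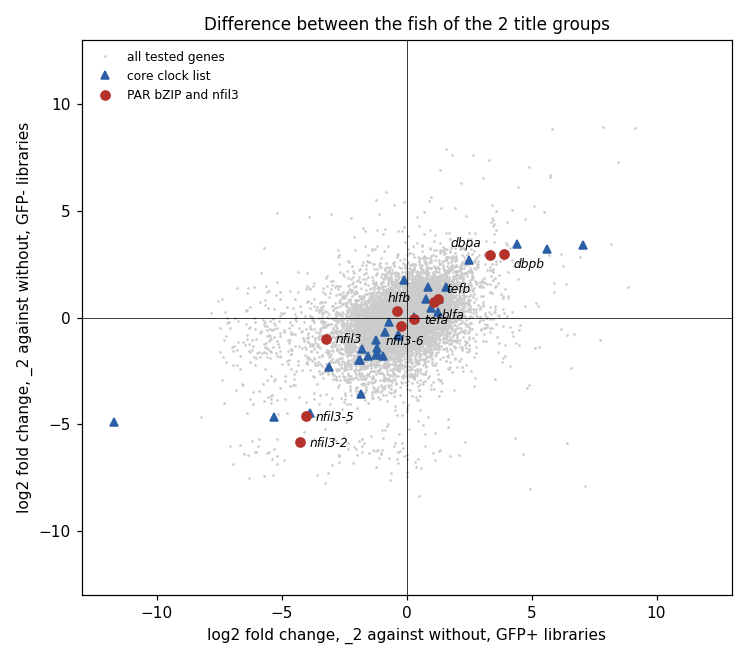
Each point is 1 gene, placed by its log2 fold change for the suffix _2 in GFP+ cells (horizontal axis) and in GFP- cells (vertical axis). Grey points are all 12564 genes tested, blue triangles the core clock list and red circles the PAR bZIP and nfil3 genes. dbpa and dbpb lie at the upper right with bhlhe41 and per1a, and nfil3-2 and nfil3-5 at the lower left with arntl1b, rorca and rorcb, whose values at 0 counts depend on the prior count.

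Genes linked to D-boxes were counted on a list of 14 zebrafish light response and DNA repair genes and homologs of mammalian PAR bZIP targets, of which 11 were found and 10 tested. By edgeR 0 of the 10 passed between fish in either population, with 2 in GFP+ and 1 in GFP- cells at an unadjusted p under 0.05, and DESeq2 also called 0 in each. Of all genes, 0.541% passed in GFP+ and 0.669% in GFP- cells. The medians over the list were 0.01 in GFP+ and -0.17 in GFP- cells. per2, which is induced by light through a D-box in zebrafish, measured 478, 588, 39.3 and 255 CPM in GFP+ cells of fish 1, 2, 2_2 and 5_2 and 292, 294, 8.34 and 137 CPM in GFP- cells. It was lower in fish 2_2 and 5_2 in each population without passing (edgeR FDR = 0.371 and 0.43). Between populations it was the list's 1 gene past the threshold, beside 15.2% of all genes, and was higher in GFP+ cells (log2 fold change 1.08, edgeR FDR = 0.00971).

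Immediate early genes, which dissociation can induce, were examined on a list of 17, of which 13 were tested. Of these, 10 passed as lower in GFP+ cells by edgeR (median over the 13 of -2.33), beside 1202 of all 12564 genes. Between fish 0 passed by edgeR in either population, beside 0.541% of all genes in GFP+ and 0.669% in GFP- cells. At an unadjusted edgeR p under 0.05 there were 2 in GFP+ and 1 in GFP- cells, and DESeq2 called 0. Their summed level was 540 and 190.4 CPM in GFP+ cells of fish 1 and 2 and 309 and 299 CPM in those of fish 2_2 and 5_2. In GFP- cells it was 1268 and 1133 CPM against 1138 and 1051 CPM.

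Likeness of pattern was described as Pearson's r of log2(CPM + 1) over the 8 libraries, which are pairs from 4 fish and not independent. Within the family r was 0.954 between dbpa and dbpb, 0.935 between tefb and hlfa, and 0.894 between nfil3-2 and nfil3-5, while it was -0.881 between dbpb and nfil3-5 and -0.806 between tefa and hlfb. Among 7932 genes with a mean of at least 10 CPM, the closest to dbpb was bhlhe41 (r = 0.986), and the closest to dbpa was bcap29 (r = 0.99). tefb ran closest to mef2cb (r = 0.978) and mef2ca (r = 0.972), which encode Mef2 transcription factors. hlfa had mt-co3 (r = 0.961) and mt-atp8 (r = 0.958), both mitochondrial genes, among its closest 3, and the mitochondrial share differed between the same fish groups. nfil3-5 ran closest to bai2 (r = 0.969), with the cryptochrome gene cry2b (r = 0.951) next, nfil3-2 to gramd2a (r = 0.986), and nfil3-6 to micu3a (r = 0.98). For hlfb the closest gene was plekhg5a (r = 0.974) and for tefa ywhabl (r = 0.957). Each of these is the highest r among 7932 genes, and no p-value was computed. A high r is thus not particular to a member, since nfil3, with 0 to 27 counts in a library, also reached 0.956 with trim24.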

How the data were processed

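RNA of sorted cells was amplified (Ovation RNA-Seq System V2) and sequenced on a MiSeq. Trimming (Sickle), merging of read pairs (FLASH), alignment to Zv9 (BWA) and counting per Ensembl gene (HTSeq) were done by the authors. The deposited values are raw counts, 1 file per library, and whether counting used strand is not given in the sources used here. HTSeq's 5 rows for reads without a gene (34.4% to 55.3% of reads) were left out. The authors' table gave symbols and positions only. Its fold changes, p-values and per-library columns were not used.

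Tests used edgeR 4.0.16 (R 4.3.3): TMM scaling, filterByExpr (12564 genes), quasi-likelihood F tests, Benjamini-Hochberg FDR under 0.05. Standard errors (SE) were derived as the absolute log2 fold change divided by the square root of the F statistic. For genes with libraries at 0 counts they need not be the sampling error of the fold change. The model for GFP+ against GFP- had fish as a block, since the study's methods pair the populations of a fish. Deviations from group means correlated at 0.215 to 0.335 within fish and at -0.17 to -0.062 on average between fish. The suffix was tested on the 4 groups of population and suffix, which leaves 4 residual degrees of freedom, and its interaction with fish as a block. Where fish was a block, p-values measure the spread that remains within fish. In the suffix fits they measure the spread among libraries of a group, and the pairing of libraries by fish is not modelled. In each edgeR fit the spread of a gene is drawn towards a trend over all genes. The p-values therefore also rest on spread shared between genes, and not on the few residual degrees of freedom of a gene alone. Every member is named, list genes were named only past the threshold, apart from per2, which was chosen after its values were seen, and up to 3 genes most like a member were eligible to be named. The members and lists were chosen with earlier results of these libraries known. DESeq2 1.42.0, other scalings, filters and leaving out fish were tried. The scripts were tested on simulated counts.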

Additional observations from a re-analysis of the deposited data

Results flagged for a closer look

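In groups of 4 libraries, 3 of the 20 sets of member levels held a library far from the other 3 (Dixon's criterion, 0.829). Chance gives about 1 in 20 for independent sets with a normal spread. These sets share the same 4 fish and were taken in CPM without a log scale, so that rate need not hold here. All were libraries of fish 2 and nfil3 genes. nfil3-5 was at 306 CPM in GFP+ and at 454 CPM in GFP- cells of fish 2, where the next library was at 48.5 and 54.8 CPM. nfil3-2 was at 45.3 CPM in GFP- cells of fish 2, where the next was at 6.62 CPM. The cause was not tested.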

How the results depend on the processing

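The count of members past the FDR threshold between populations was 2, and 1 with no low count filter, 1 without mitochondrial genes, 0 with no replicate block, and 0 to 1 on leaving out a fish. For the suffix in GFP+ cells it was 2, and 1 with no scaling factors, 4 with no low count filter, 5 by DESeq2 and 0 to 2 on leaving out a fish. For the suffix in GFP- cells it was 2, and 1 with no scaling factors, 4 with no filter, 3 by DESeq2, 3 with that population alone and 0 to 2 on leaving out a fish (0 without fish 2 or 2_2). For the interaction it was 0 throughout, including the leaving out of fish, which was added after the data were seen.

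Signs turned with no scaling factors for nfil3-5 (0.094) and nfil3-6 (0.12) between populations, for tefa (-0.41) in GFP+ cells, and for tefb (-0.26), hlfa (-0.37) and hlfb (-0.83) in GFP- cells. The medians over all genes moved in that setting too, as given below. On leaving out a fish, the log2 fold change between populations ranged from -0.093 (without fish 1) to 1.73 for nfil3. For the suffix in GFP- cells it ranged from -0.29 to 0.14 for tefa (above 0 without fish 1 or 5_2), from -6.0 to 2.28 for nfil3 (above 0 without fish 2) and from -0.20 to 0.75 for hlfb (below 0 without fish 2_2). In the interaction, without fish 2_2, hlfb turned to 0.17, nfil3-2 to -5.42 and nfil3-6 to -0.088, and the other ends of their ranges were -1.69, 5.64 and 0.42.

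Over all genes, 1905 passed between populations, and 801 with no replicate block and 1247 without fish 1. For the suffix in GFP+ cells 68 passed, and 385 with no filter, 378 by DESeq2, 25 with that population alone, and 3 to 271 on leaving out a fish. In GFP- cells 84 passed, and 220 with no scaling factors, 326 with no filter, 370 by DESeq2, 146 alone, and 1 to 284 on leaving out a fish. For the interaction 21 passed, and 40 with no filter, 78 by DESeq2, 35 without mitochondrial genes, and 5 to 161 on leaving out a fish. Without scaling factors the median over all genes moved to 0.32, -0.70, -1.14 and 0.46 in the 4 comparisons, and the calls became 16 higher and 41 lower (against 51 and 17) for the suffix in GFP+ cells, 19 and 201 (against 68 and 16) in GFP- cells, and 21 and 7 (against 4 and 17) in the interaction. The cause of these shifts was not tested.

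Leaving out a fish leaves 1 library in an arm, which is assumed to vary like the other groups. With 2 fish in each arm, the suffix cannot be told apart from the individual fish, and nfil3 and nfil3-2 are limited by counts near 0.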
